A study of Mus musculus with 12 samples.

Results

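Cholesterol synthesis genes were followed through the translating mRNA of cultured mouse keratinocytes, in 8 genes chosen by symbol: Hmgcs1, Idi1, Fdft1, Sqle, Lss, Srebf2, Scap and Insig1. Each of the 8 symbols matched 1 of the 54532 genes in the count table, and all 8 were among the 13571 genes that passed the filter on low counts. They comprise 5 enzymes and 3 proteins that control the pathway, and none of them is a lipoprotein receptor, so cholesterol uptake is represented through its control rather than by a receptor.

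Cells make cholesterol from acetyl-CoA through mevalonate, isoprenoid units, squalene and lanosterol. When membranes of the endoplasmic reticulum run low in sterol, Scap escorts the precursor of the transcription factor SREBP2 (gene Srebf2) to the Golgi apparatus for cleavage, and the released factor raises transcription of the synthesis enzymes and of proteins of lipoprotein uptake; when sterol is plentiful, Insig1 holds Scap in the endoplasmic reticulum. In the epidermis, cholesterol made by keratinocytes is one of the lipids of the permeability barrier.

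The keratinocytes carried a DP(1-584)-BirA transgene, which encodes a fusion of part of the protein DP with the biotin ligase BirA, and all 4 groups shared this background. Cells at confluence received calcium and doxycycline (2 micrograms per mL), which induced differentiation and the fusion protein, were then wounded or not, and were given biotin for 16 h. Ribosome-bound RNA from sucrose gradients was passed over neutravidin: the RNA that was held is called cortical, and the RNA left behind is called total, so the total fraction is depleted of cortical RNA and the 2 fractions are parts of 1 lysate. Each fraction of unwounded and of wounded cells has 3 libraries, labelled as biological replicates. The labels do not describe a control without the fusion protein or without biotin, so RNA held by the resin for other reasons is inside the cortical values, and mRNA amount and ribosome loading cannot be told apart in either fraction.

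Total counts were 8980013 to 23457548 per library. Wounded total replicate 1 stood apart: 13117 genes were detected in it, against 14393 to 16867 in the other 11 libraries, and its counts differed from those of replicates 2 and 3 by a chi-square per gene of 65.9 and 81.0, against 7.27 to 37.5 in all other replicate pairs. Member calls that change without it are given with each result, and those of other pathway genes together after them. The labelled cell type was matched by its markers: the 7 keratinocyte markers summed to 8185 to 9404 CPM (read counts per gene scaled to the size of the library) in unwounded total, 12709 to 12827 in unwounded cortical, 14485 to 17221 in wounded total and 17935 to 18320 in wounded cortical libraries. Nearly all of this sum came from the basal keratins, Krt5 at 3707 to 7637 and Krt14 at 4229 to 10888 CPM over all libraries. Its differences between groups are therefore mostly those of these keratins. Trp63, Dsg3 and Itgb4 stayed between 41.4 and 125 CPM. Of the differentiation keratins, Krt1 stayed between 0 and 1.84 CPM and Krt10 between 16.0 and 32.7. Markers of fibroblasts, melanocytes and endothelial cells summed to at most 6.47 CPM in any library. The immune list was nearly all Cd68, with Itgam and Lyz2 at 0 in every library, and its sum was higher after wounding, at 20.9 to 24.9 CPM in unwounded and 43.2 to 58.7 in wounded total libraries and at 17.8 to 20.9 and 32.9 to 38.6 in cortical ones; its part in the results on wounding was not tested.

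Promoter sequence is shown for 3 members whose mRNA differed between groups, 1 from the start of the pathway, 1 from its end and the transcription factor itself, to show where the 2 motifs searched for occur. The RefSeq promoter table (GRCm38.p6) held 6 of the 8 genes: Hmgcs1, Idi1, Lss, Srebf2, Scap and Insig1. The 250 bases before each RefSeq start were searched on both strands for TCACNCCAC, a form of the sterol regulatory element, and for CCAAT, the box bound by NF-Y; the motifs share no letters in these windows. The stretches below end before the gene start of the GENCODE annotation too, read 5′ to 3′ on the strand of the gene, and have both motifs in capitals, where ATTGG is CCAAT on the opposite strand. They lie at chr13:119690101-119690350 (Hmgcs1), chr10:76531355-76531587 (Lss) and chr15:82147019-82147180 (Srebf2), all on the plus strand.

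Hmgcs1: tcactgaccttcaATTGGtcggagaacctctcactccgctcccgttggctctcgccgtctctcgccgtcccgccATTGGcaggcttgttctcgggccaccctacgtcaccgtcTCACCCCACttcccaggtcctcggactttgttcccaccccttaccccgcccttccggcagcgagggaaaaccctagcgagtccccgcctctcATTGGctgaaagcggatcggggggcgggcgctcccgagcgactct

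Lss: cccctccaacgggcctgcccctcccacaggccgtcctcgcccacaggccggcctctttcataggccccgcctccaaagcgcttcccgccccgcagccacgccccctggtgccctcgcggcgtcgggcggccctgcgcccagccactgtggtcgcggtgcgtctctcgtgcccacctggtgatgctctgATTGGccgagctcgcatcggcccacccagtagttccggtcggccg

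Srebf2: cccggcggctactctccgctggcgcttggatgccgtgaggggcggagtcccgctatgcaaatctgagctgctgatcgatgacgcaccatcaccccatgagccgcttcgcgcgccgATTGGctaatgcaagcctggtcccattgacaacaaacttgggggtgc

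TCACNCCAC occurred in 1.05% of the 32851 windows of this length in the table and in 1 of the 6 members, Hmgcs1, from 137 to 129 bases before its start. CCAAT occurred in 33.8% of windows and in 5 of the 6 members, all but Scap. Hmgcs1 held 3 copies, Idi1 2, and Lss, Srebf2 and Insig1 1 each. A match of letters is a description of the window and not a measured binding site.

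Per unit of annotated exonic length of the gene, Scap had the highest counted level of the 8 and Idi1 the lowest. The counting tool is not given, so it is not known how reads that match several places in the genome were counted. Whether this lowers the level of Idi1 was not tested. In deposited FPKM (a level corrected for that length and library size), unwounded total cells held 34.6 ± 0.758 of Scap, 23.7 ± 0.619 of Fdft1, 21.6 ± 1.57 of Hmgcs1, 11.9 ± 1.18 of Sqle, 11.7 ± 0.778 of Srebf2, 8.05 ± 0.877 of Lss, 7.72 ± 0.173 of Insig1 and 0.844 ± 0.146 of Idi1 (SD, n = 3). The length counts all annotated exons of a gene, 10787 bases for Lss against 2199 coding bases, so the order is not one per transcript. Sqle and Srebf2 were within their spread of each other, as were Lss and Insig1, and the step from Fdft1 to Hmgcs1 was small enough for their libraries to overlap. The order of Hmgcs1 and Fdft1 was the other way round in unwounded cortical libraries, with 28.6 ± 0.487 FPKM of Hmgcs1 and 22.7 ± 1.58 of Fdft1 (SD, n = 3).

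**Figure D1:**
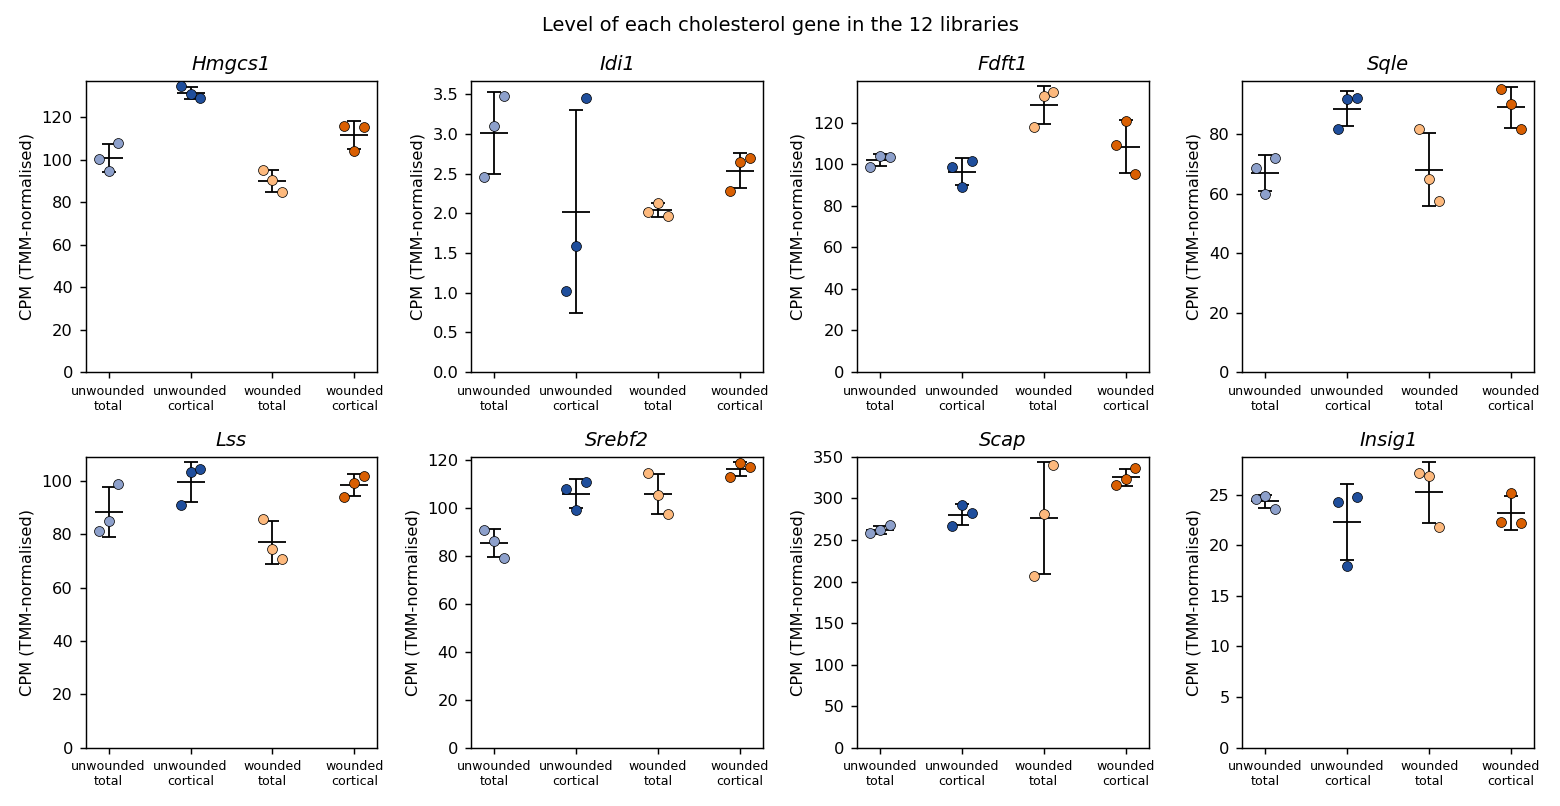
Level of each of the 8 genes in the 12 libraries, in CPM scaled by edgeR's TMM factors, on axes that start at 0. Points are libraries, the long bars are group means and the whiskers are 1 SD (n = 3). For Hmgcs1, Sqle and Srebf2 the 3 unwounded cortical libraries lie above the 3 unwounded total libraries.

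The first comparison asks which of these mRNAs were enriched at the cortex of unwounded cells. In it 3 of the 8 members rose at an adjusted p under 0.05 and none fell: Hmgcs1, Sqle and Srebf2, by 1.24 to 1.32 times. By the same test (edgeR's quasi-likelihood F test with Benjamini-Hochberg adjustment over all 13571 genes) 14.2% of all genes were called. The median of the 8 log2 fold changes was 0.13, against 0.00 over all genes tested. In CPM, 3 of the 8 members had groups that did not overlap, against 36.2% of all genes, so the share of members set apart was about that of any gene.

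Hmgcs1 encodes the cytosolic synthase that makes HMG-CoA, the substrate of the rate-limiting step of the pathway. Its level was 100.2, 94.6 and 107.9 CPM in the unwounded total libraries and 134.6, 131.2 and 129.0 in the unwounded cortical libraries. The groups were well apart, with every cortical library above every total library, and the log2 fold change was 0.38 (SE 0.09, adjusted p = 0.0119). The call was lost when unwounded total replicate 2 (adjusted p = 0.0661) or unwounded cortical replicate 1 (adjusted p = 0.0546) was left out, and it held under the 10 other fits that left out a library and the 10 that changed the method.

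Sqle encodes squalene epoxidase, a second control point of flux that adds oxygen to squalene. It stood at 68.8, 60.1 and 72.0 CPM in unwounded total and 81.8, 91.8 and 92.3 CPM in unwounded cortical libraries. These groups did not overlap either, and the log2 fold change was 0.40 (SE 0.13, adjusted p = 0.0422). Of the 12 fits that left out a library, the 3 without a wounded total library kept the call (adjusted p = 0.00478, 0.0464 and 0.0214 without replicates 1, 2 and 3), and the other 9 gave adjusted p of 0.0507 to 0.190.

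Srebf2 encodes the transcription factor SREBP2 itself. Its values were 90.9, 86.4 and 79.3 CPM in unwounded total and 108.1, 99.3 and 111.1 CPM in unwounded cortical libraries. Again the groups were apart, with a log2 fold change of 0.31 (SE 0.10, adjusted p = 0.0425). The call behaved as that of Sqle: it held without wounded total replicate 1, 2 or 3 (adjusted p = 0.0118, 0.0475 and 0.0285) and stood at 0.0511 to 0.151 without any other library.

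The remaining enzymes did not pass the test in unwounded cells. Lss encodes lanosterol synthase, which closes the sterol ring system, and it had a log2 fold change of 0.17 (95% interval -0.06 to 0.41). Fdft1 encodes squalene synthase, the first step committed to sterols, and it had -0.08 (-0.31 to 0.14). Its libraries gave 98.8, 104.1 and 103.3 CPM in unwounded total and 98.5, 89.1 and 101.7 CPM in unwounded cortical cells, which overlap. Idi1, the isomerase of isopentenyl diphosphate, was too low for a statement: it had 506 counts over all 12 libraries, 19 to 59 in each, and an interval from -1.65 to 0.43. Among the control proteins, Scap had 0.10 (-0.19 to 0.38) and Insig1 -0.12 (-0.44 to 0.20).

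**Figure D2:**
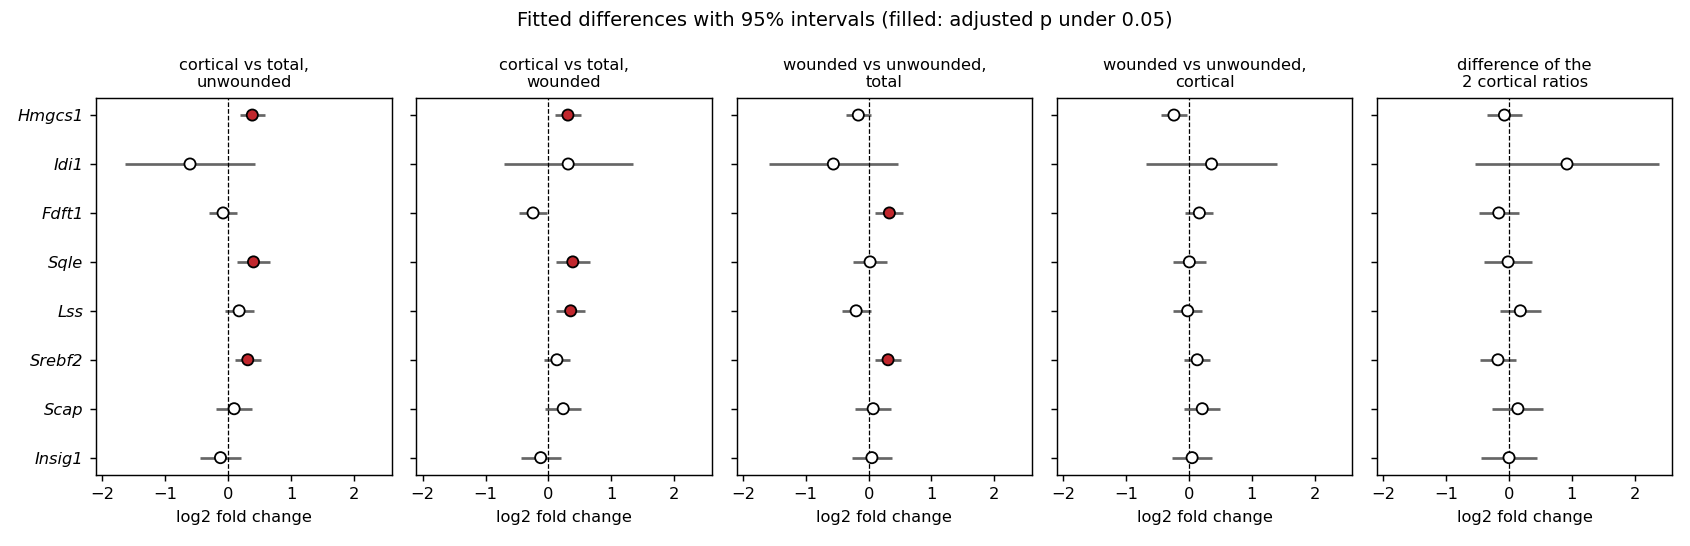
Fitted log2 fold change of each member in the 5 comparisons, with 95% intervals as lines; filled points have an adjusted p under 0.05 over all genes. The 3 called members of the first panel and the 3 of the second lie to the right of 0, and the wide intervals belong to Idi1.

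In wounded cells the same question gave 3 of 8 members higher at the cortex, Hmgcs1, Sqle and Lss, where 15.7% of all genes were called. Hmgcs1 and Sqle were thus called in both states, Srebf2 only in unwounded and Lss only in wounded cells; the test of that difference is given below and did not pass for any of them. The median of the 8 members was 0.27, against 0.04 over all genes. Groups of 4 of the 8 members did not overlap, against 29.2% of all genes.

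Hmgcs1 was at 95.1, 90.5 and 84.7 CPM in wounded total and at 115.8, 104.1 and 115.3 CPM in wounded cortical libraries. The cortical libraries were all higher, with a log2 fold change of 0.31 (SE 0.09, adjusted p = 0.0353). Without unwounded total replicate 2 or 3, unwounded cortical replicate 3, wounded total replicate 1 or wounded cortical replicate 2 the call held (adjusted p of 0.00975 to 0.0492), and it was lost without any of the other 7 libraries (0.0514 to 0.134).

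Lss gave 85.9, 74.5 and 70.6 CPM in wounded total and 93.9, 99.4 and 102.0 CPM in wounded cortical libraries. No library of one group reached into the other, and the log2 fold change was 0.35 (SE 0.11, adjusted p = 0.0368). The call was lost without unwounded cortical replicate 2, wounded total replicate 2 or 3 or any 1 wounded cortical library (adjusted p of 0.0502 to 0.137).

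Sqle gave 81.6, 65.1 and 57.5 CPM in wounded total and 95.3, 90.1 and 81.8 CPM in wounded cortical libraries. The highest total library was wounded total replicate 1, which lay just under the lowest cortical one. The log2 fold change was 0.39 (SE 0.13, adjusted p = 0.0463). Without wounded total replicate 1 it was 0.54 (adjusted p = 0.00095), and without each of the other 11 libraries the call was lost (0.0526 to 0.196).

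Fdft1, the enzyme between these, pointed the other way in wounded cells. It stood at 117.7, 132.6 and 134.6 CPM in wounded total and 109.2, 120.8 and 95.2 CPM in wounded cortical libraries, with groups that overlapped. Its log2 fold change was -0.24 (SE 0.11, adjusted p = 0.134), which did not pass. Without wounded total replicate 1 it was -0.30 (adjusted p = 0.0315). Srebf2 (0.14, 95% interval -0.07 to 0.34), Scap (0.24, -0.05 to 0.52), Insig1 (-0.12, -0.44 to 0.20) and Idi1 (0.32, -0.71 to 1.34) did not pass either. Scap was called, at 0.41 (adjusted p = 0.0407), when wounded total replicate 3 was left out.

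The 2 enzymes that feed and draw on the same pathway can be set against each other inside each library, which removes any scaling between libraries; this ratio was chosen after its values were seen and was not tested. Hmgcs1 over Fdft1 in FPKM was 0.934, 0.836 and 0.961 in unwounded total, 1.26, 1.35 and 1.17 in unwounded cortical, 0.743, 0.628 and 0.579 in wounded total and 0.975, 0.793 and 1.11 in wounded cortical libraries. In both states every cortical library had a higher ratio than every total library of that state. The 3 wounded total libraries had the lowest ratios of all 12. The share of all genes set apart by a ratio over Fdft1 was not computed. In CPM, 36.2% of all genes in unwounded and 29.2% in wounded cells had groups that did not overlap.

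Reads of Fdft1 can come from a neighbour. Its exons share 774 bases, 18.31% of its exonic length, with Ctsb, the gene of cathepsin B on the opposite strand, and the libraries keep no strand. Ctsb had a cortical log2 fold change of 0.04 in unwounded and -0.03 in wounded cells. Between wounded and unwounded total libraries it had 0.34 (SE 0.10, adjusted p = 0.0312). Hmgcs1, Idi1, Lss and Scap also overlap antisense or unclassified genes, each of which had at most 20 counts over all libraries.

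Coding length moved with the cortical difference over all genes and so stands beside these values. Over 10 bins of genes by the length of their longest coding sequence, the median log2 fold change rose from -0.40 in the shortest to 0.36 in the longest bin in unwounded cells, and from -0.44 to 0.43 in wounded cells. Against the median of its own bin, Hmgcs1 (coding length 1560 bases) was higher by 0.31 in unwounded and 0.21 in wounded cells, and Sqle (1716 bases) by 0.32 and 0.24. Lss (2199 bases) was at its bin's median in unwounded cells (0.00) and 0.16 over it in wounded cells. Srebf2 (3390 bases) was 0.05 over and 0.15 under the median of its bin, a difference of -0.15 in wounded cells. Scap, with 3828 bases, differed from its bin by -0.27 and -0.20, and Fdft1, with 1248 bases, by -0.09 and -0.30.

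**Figure D3:**
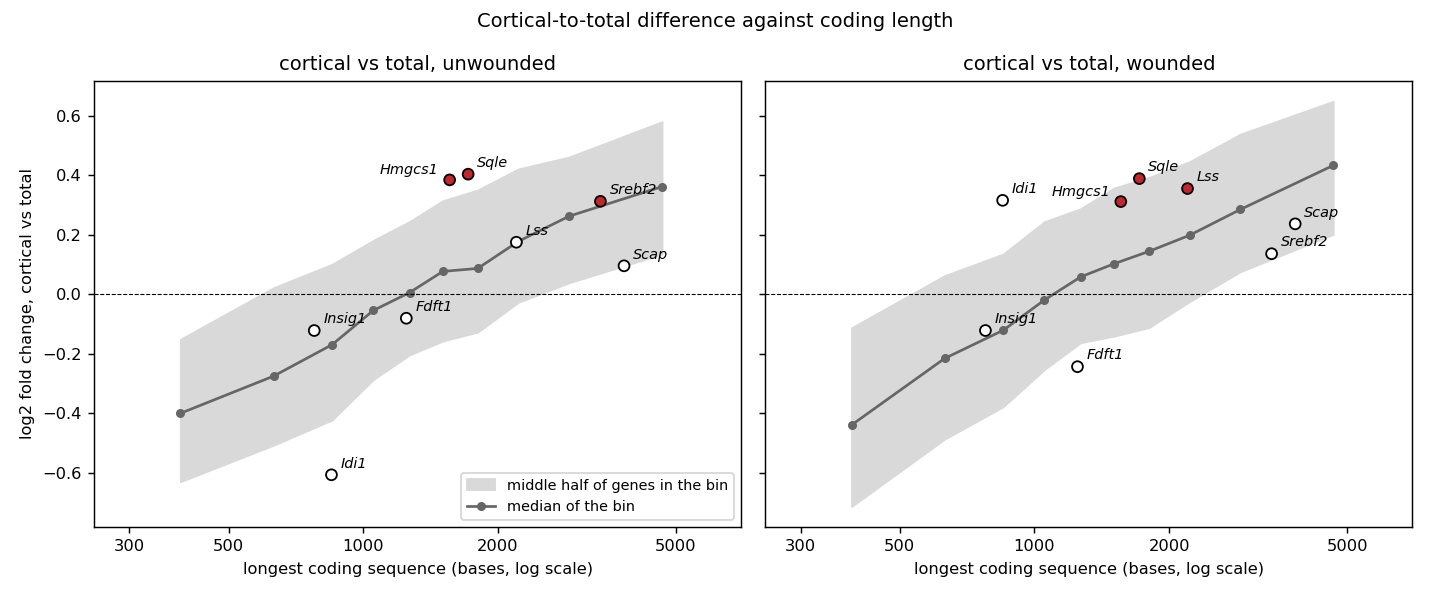
Cortical-to-total log2 fold change against the length of the longest coding sequence (log axis), in unwounded (left) and wounded (right) cells. The line joins the medians of 10 bins over all genes, the grey band runs from the lower to the upper quartile of each bin, and filled points are members with an adjusted p under 0.05: Hmgcs1 and Sqle lie above the line in both panels, Fdft1 and Scap below it.

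A trend on gene length was then removed from each library. This length counts all annotated exons of a gene and is not the coding length above: for Lss it is 10787 bases, against 2199. In this fit 1 of 8 members was called in unwounded cells, Hmgcs1 at 0.38 (adjusted p = 0.0154), where 10.6% of all genes were. In wounded cells 1 was called, Fdft1 at -0.34 (adjusted p = 0.0393), against 10.8% of all genes. Sqle (0.34, adjusted p = 0.109) and Srebf2 (0.20, adjusted p = 0.244) were no longer called in unwounded cells, nor were Hmgcs1 (0.19, adjusted p = 0.237), Sqle (0.22, adjusted p = 0.318) and Lss (0.04, adjusted p = 0.848) in wounded cells. Median-of-ratios scaling also removed the 3 calls in wounded cells (adjusted p = 0.0542 for Hmgcs1, 0.0661 for Sqle and 0.0549 for Lss). It called 15.2% of all genes there.

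Wounding was compared next, in the total fraction. Of the 8 members 2 rose, Fdft1 and Srebf2, and none fell, while 15.6% of all genes were called. The median of the members was 0.04, against -0.03 over all genes, and the groups of 3 of 8 members did not overlap, against 32.1% of all genes.

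Fdft1 went from the 98.8 to 104.1 CPM of the unwounded total libraries to 117.7, 132.6 and 134.6 CPM in the wounded ones. All wounded libraries were higher, and the log2 fold change was 0.33 (SE 0.11, adjusted p = 0.0423), close to the 0.34 of the overlapping gene Ctsb. The share of these reads that comes from Ctsb was not tested. The call held without wounded total replicate 1 (0.39, adjusted p = 0.00665) and without wounded cortical replicate 2 or 3 (0.0438 each), and the other 9 left-out libraries gave adjusted p of 0.0556 to 0.157.

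Srebf2 rose from 79.3 to 90.9 CPM in the unwounded total to 114.6, 105.6 and 97.8 CPM in the wounded total libraries. The groups were apart by less than the spread inside them. The log2 fold change was 0.31 (SE 0.10, adjusted p = 0.0406). It was called in 1 of the 12 fits that left out a library, that without wounded total replicate 3 (adjusted p = 0.0423). The other fits gave adjusted p of 0.0540 to 0.154. Without wounded total replicate 1, the library with the highest of these values, the log2 fold change was 0.25 (adjusted p = 0.0634). Both calls were also lost when libraries were scaled by their totals alone (adjusted p = 0.158 for Fdft1 and 0.255 for Srebf2), a scaling under which the median of all genes in this comparison was -0.10.

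The other 6 members did not pass. Hmgcs1 had -0.16 (95% interval -0.36 to 0.04) and Lss -0.20 (-0.43 to 0.03), Sqle 0.02 (-0.24 to 0.29), Scap 0.07 (-0.21 to 0.36) and Insig1 0.05 (-0.27 to 0.37). Scap varied most inside a group here: its wounded total libraries were at 206, 281 and 341 CPM, the lowest being replicate 1, around unwounded values of 258, 262 and 268. Idi1 had -0.56 (-1.59 to 0.47); its 3 wounded libraries were all below the unwounded ones, at 2.02, 2.13 and 1.96 against 2.46, 3.10 and 3.48 CPM, on 32 to 59 counts each.

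In the cortical fraction no member was called between wounded and unwounded cells, where 2.48% of all genes were. DESeq2 called 0 members, against 5.42% of all genes. At an unadjusted p under 0.05 edgeR's test gave 1 member, against 17.3% of all genes. That member was Hmgcs1, at -0.24 (SE 0.09, adjusted p = 0.203), whose wounded cortical libraries (104.1 to 115.8 CPM) lay below all the unwounded cortical ones (129.0 to 134.6 CPM). Srebf2 stood at 113.1, 119.1 and 117.2 CPM in wounded cortical libraries, all over the unwounded cortical ones, with a log2 fold change of 0.13 (95% interval -0.07 to 0.34). Scap did so too, with 316, 323 and 337 CPM against 267, 292 and 283 and a log2 fold change of 0.21 (-0.07 to 0.50). In a fit on these 6 libraries alone Hmgcs1 (-0.26, adjusted p = 0.0247) and Scap (0.19, adjusted p = 0.0382) were called, where that fit called 11.3% of all genes. Groups of 3 of the 8 members did not overlap, against 26.9% of all genes.

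Whether wounding changed the cortical-to-total ratio was tested as the difference of the 2 cortical fold changes. None of the 8 members passed (0 at an unadjusted p under 0.05, where 9.05% of all genes were, and 0 with DESeq2, which called 0.531% of all genes), and 0.125% of all genes were called. For Hmgcs1 the difference, wounded minus unwounded, was -0.07 (95% interval -0.36 to 0.21), for Sqle -0.01 (-0.39 to 0.36), for Lss 0.18 (-0.15 to 0.51), for Srebf2 -0.18 (-0.47 to 0.12), for Fdft1 -0.16 (-0.48 to 0.15), for Scap 0.14 (-0.27 to 0.55), for Insig1 0.00 (-0.45 to 0.45) and for Idi1, on few counts, 0.92 (-0.54 to 2.38). The intervals leave room for changes of the size of the cortical differences themselves, so the ratio in one state is not shown to equal that in the other. The comparisons above share libraries, and their values are set side by side for that reason without any measure of agreement.

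**Figure D4:**
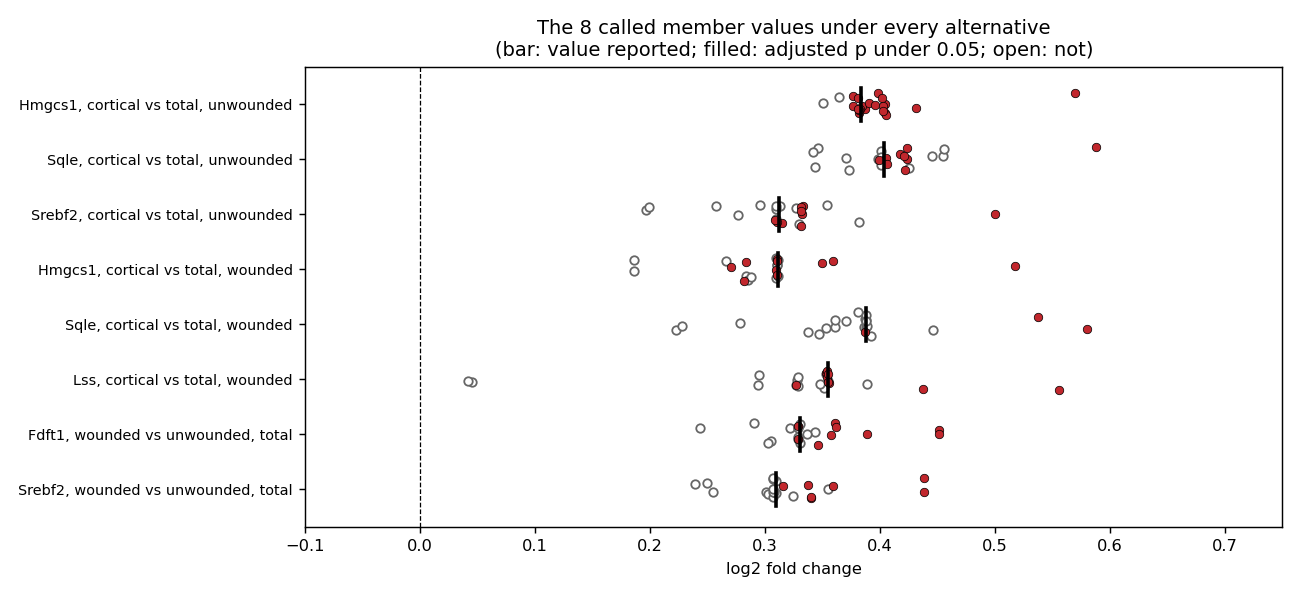
Log2 fold change of the 8 called member values (rows) as reported (bar) and under each of 22 other fits (points; filled where the adjusted p was under 0.05). All points lie to the right of 0, while the number of filled points runs from 3 for Sqle in wounded cells to 20 for Hmgcs1 in unwounded cells.

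The rest of the pathway was taken from 4 lists of further genes, of which 28 of 30 were tested. Abca1 and Abcg1, the exporters of cholesterol, had at most 6 counts in a library and were left out by the filter. In unwounded cells the cortical difference was positive for 1 of the 6 early enzymes, with a median of -0.26. It was positive for 5 of the 8 late enzymes, with a median of 0.22, against 0.00 over all genes. In wounded cells it was positive for 2 of the 6 early and 5 of the 8 late enzymes. The medians there were -0.07 and 0.03, against 0.04 over all genes. Enzymes among the members, such as Hmgcs1, are in neither list. The genes of the lists were not set against the bins of coding length.

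Among the early enzymes Pmvk, phosphomevalonate kinase, fell at the cortex in both states, by 0.46 (SE 0.10, adjusted p = 0.00720) and 0.36 (SE 0.10, adjusted p = 0.0267) on the log2 scale. It was the only one of the 6 called in either state, where 14.2% of all genes were called in unwounded and 15.7% in wounded cells. Mvk, mevalonate kinase, had -0.40 and -0.35 and did not pass (adjusted p = 0.0531 and 0.0855). After wounding, 3 of 6 early enzymes fell in the total fraction and none rose, where 15.6% of all genes were called: Acat2, the acetyl-CoA acetyltransferase that starts the pathway, by 0.69 (adjusted p = 0.00159), Ggps1, which makes geranylgeranyl diphosphate, by 0.61 (adjusted p = 0.0273), and Mvd, mevalonate decarboxylase, by 0.32 (adjusted p = 0.04). The median of the 6 was -0.47. With the length trend removed only Acat2 was called, against 19% of all genes, and with scaling by totals Acat2 and Ggps1, against 13.4%.

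Late enzymes were called at the cortex in 2 of 8 cases in unwounded cells, Cyp51, the lanosterol demethylase, at 0.43 (SE 0.11, adjusted p = 0.0131) and Msmo1, the methylsterol oxidase, at 0.40 (SE 0.11, adjusted p = 0.0172). In wounded cells 1 of 8 was called, Hsd17b7, a ketosteroid reductase of this route, at 0.45 (SE 0.14, adjusted p = 0.0338), and the median of the 8 was 0.03, against 0.04 over all genes. Of all genes, 14.2% were called at the cortex of unwounded and 15.7% at that of wounded cells. After wounding, Hsd17b7 was the only late enzyme called in the total fraction, and it fell by 0.73 (SE 0.14, adjusted p = 0.00161), from 54.4, 52.1 and 60.7 to 35.0, 34.4 and 31.3 CPM. In that comparison 15.6% of all genes were called. Hsd17b7 was called lower in other fits as well, but not alone: Ebp and Msmo1 rose without wounded total replicate 1, Cyp51, Ebp and Msmo1 rose with the length trend removed, and Dhcr7 fell with scaling by totals. Of all genes, 24.9%, 19% and 13.4% were called in these fits.

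Of the 7 regulators, 1 rose and 1 fell at the cortex in each state, against the 14.2% and 15.7% of all genes called. Srebf1, the gene of the sister factor SREBP1 that favours fatty acid synthesis, had the largest cortical difference among the called genes of these lists, 0.94 (SE 0.17, adjusted p = 0.00139) in unwounded and 0.80 (SE 0.16, adjusted p = 0.00383) in wounded cells. It stood at 18.7, 15.7 and 20.8 CPM in unwounded total against 33, 32.4 and 40.8 CPM in unwounded cortical libraries. The groups were far apart in wounded cells too, at 25.5, 21.7 and 17.5 against 33.6, 42.1 and 37.3 CPM. Nr1h2, the gene of the oxysterol receptor LXR beta, fell by 0.43 (adjusted p = 0.0112) and 0.34 (adjusted p = 0.0356). None of the regulators was called between wounded and unwounded total libraries, though Insig2 rose there with the length trend removed. Of the 7 tested genes of sterol handling, Vldlr, a lipoprotein receptor, rose at the cortex of unwounded cells by 0.67 (SE 0.18, adjusted p = 0.0199), none was called at the cortex of wounded cells, and Npc1, which moves cholesterol out of lysosomes, rose after wounding in the total fraction by 0.68 (SE 0.21, adjusted p = 0.0380). The shares of all genes called in these comparisons were 14.2%, 15.7% and 15.6%, in that order. In the fit on all 12 libraries no gene of the 4 lists was called between wounded and unwounded cortical libraries or in the difference of the ratios; without wounded total replicate 1, Fdps, Dhcr7 and Vldlr fell between the cortical libraries.

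**Figure D5:**
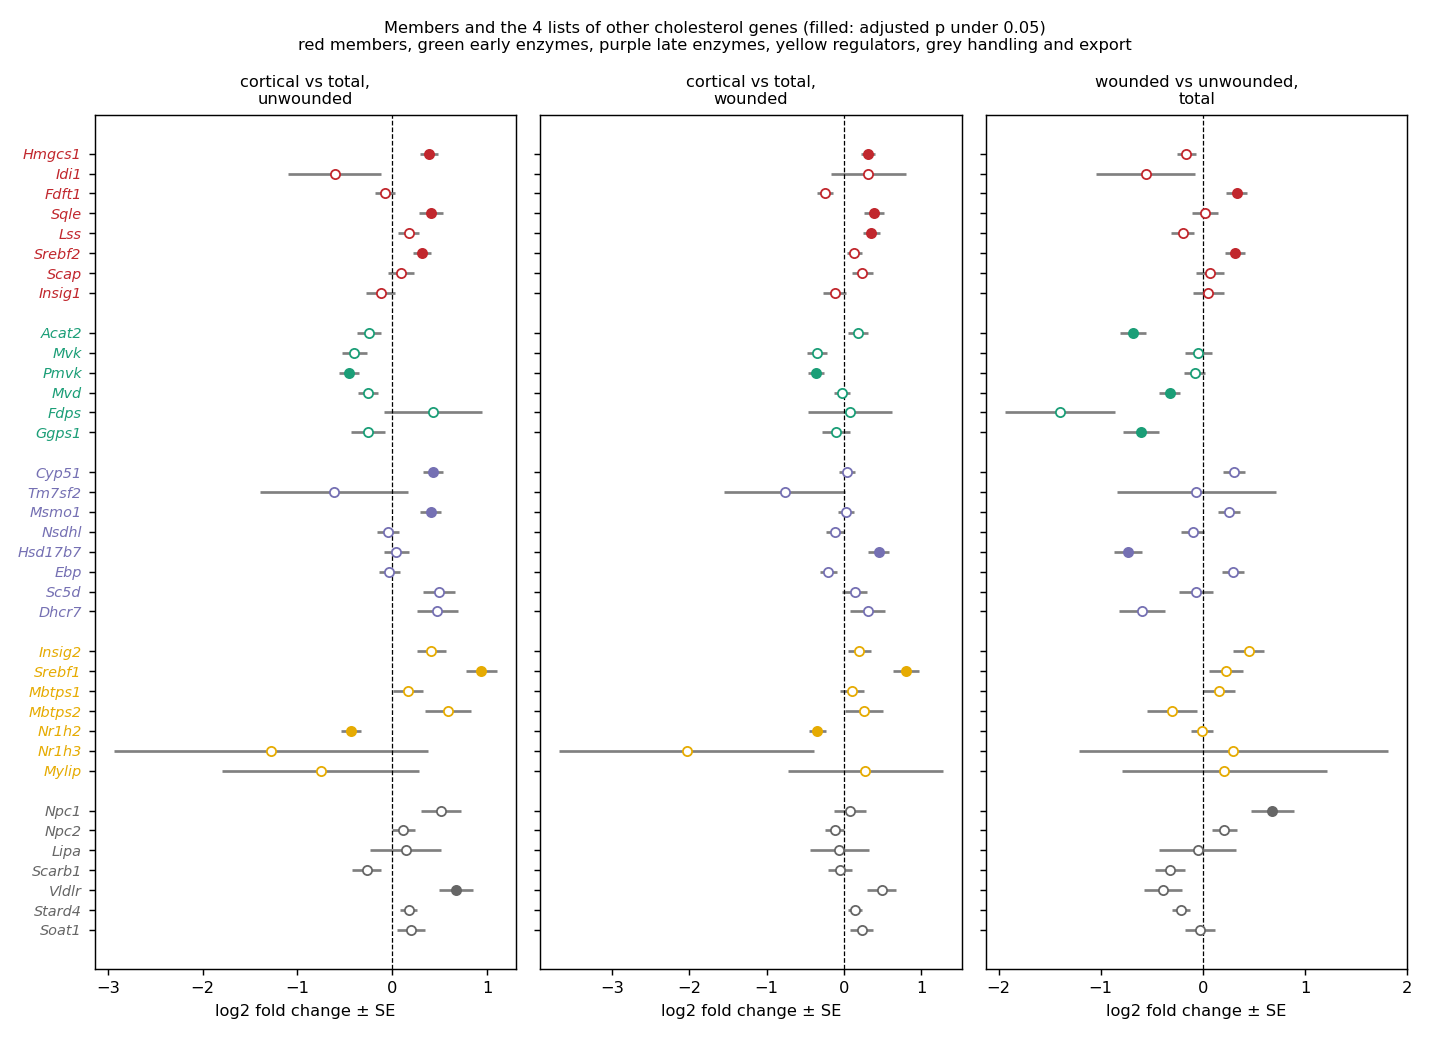
Log2 fold change ± SE of the 8 members and the 28 tested genes of the 4 lists in 3 comparisons, filled where the adjusted p was under 0.05; the horizontal axes differ between panels. Early enzymes (green) lie mostly to the left of 0 in the panels for unwounded cells and for wounding, and Srebf1 (yellow) lies farthest right among the filled points of the first 2.

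Leaving out wounded total replicate 1 added calls in these lists, as it did over all genes, of which 22.4% were then called in unwounded cells, 24.7% in wounded cells, 24.9% after wounding in the total fraction and 9.07% in the cortical fraction. In unwounded cells 4 of 6 early enzymes then fell and 3 of 8 late enzymes rose at the cortex, with Mvk, Mvd and Acat2 and with Sc5d added, and 3 of 7 regulators rose, with Insig2 and Mbtps2 added. In wounded cells 2 of 6 early enzymes fell, with Mvk added, and Vldlr rose. After wounding in the total fraction Npc1 was no longer called, Npc2 rose and Vldlr fell. Scaling by totals, with which 15.1% and 20.1% of all genes were called at the cortex of unwounded and wounded cells, ended the lower calls of Pmvk and Nr1h2 in both states and the call of Npc1 after wounding. Under it Acat2 rose in wounded cells, as did Stard4 and Vldlr, and Sc5d, Dhcr7 and Insig2 rose in unwounded cells. With the length trend removed, the calls left at the cortex were those of Srebf1 and Nr1h2 in both states and of Cyp51 in unwounded cells. Of all genes, 10.6% were then called in unwounded and 10.8% in wounded cells. How the calls in these lists hold under the remaining alternatives, the other left-out libraries among them, was not tested.

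The 5 enzymes did not vary as 1 unit over the 12 libraries. With the mean of their standardized log2 CPM, Lss had a Pearson correlation of 0.891, Sqle 0.851 and Hmgcs1 0.648, but Idi1 0.374 and Fdft1 -0.361; each enzyme is part of that mean, so these values describe and test nothing. The sum of the 5 was 347 to 386 CPM in unwounded total, 407 to 431 in unwounded cortical, 349 to 382 in wounded total and 397 to 417 in wounded cortical libraries. Among 8849 other protein-coding genes averaging 100 counts or more, the 5 whose log2 CPM followed the enzymes' mean most closely were Ttc37 (0.885), 2700049A03Rik (0.880), Uba2 (0.877), Tsen54 (0.873) and Abl2 (0.870). The 12 points fall into the 4 groups and share library depth and scaling, so these are likenesses of level and no more.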

How the data were processed

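Translating-fraction RNA from 12 libraries (4 groups of 3) was sequenced from poly(A)-selected, non-directional libraries, per the labels' protocols. CASAVA, HISAT2 and the mm10 build are named in the submitters' processing notes; the counting tool is not given in the sources used here. The deposited table holds raw read counts per gene and FPKM values that the authors computed from them; every column was mapped to 1 library by its name.

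Counts were tested with edgeR 4.0.16 (R 4.3.3): filterByExpr on the groups, TMM scaling, 1 model with a term per group over all 12 libraries, a two-sided quasi-likelihood F test for each of 5 contrasts, and Benjamini-Hochberg adjustment over the 13571 genes tested, with a threshold of 0.05. Levels are CPM with TMM scaling; levels of different genes are compared only in FPKM. The likeness measure used log2 CPM with a prior count of 2. The code was tested on simulated counts. p-values measure the spread between the labelled biological replicates, whose source in separate cultures is not described further. No 2 libraries of the same group were alike within sampling noise.

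Alternatives were median-of-ratios scaling, scaling by totals, DESeq2 1.42.0, no filter, only the groups compared, a replicate block, removal of the gene length trend (loess, span 0.5), both together, limma 3.58.1 on log2 of FPKM with a pseudocount of 1 or 0.1, and leaving out each library. Gene length here is that of all annotated exons, while the bins used coding length. For the 4 lists of further genes only scaling by totals, removal of the length trend and leaving out wounded total replicate 1 were used.

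All 8 members and up to 4 called genes per list and comparison are named, with 5 genes most like the enzymes. Members and lists were chosen with earlier results of these data known. Some sterol genes are not reported here. Coding lengths and exon overlaps come from GENCODE M21, promoters from RefSeq.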

Additional observations from a re-analysis of the deposited data

How the results depend on the processing

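The 8 called member values kept their sign under all 22 other fits, but most were close to the threshold: Hmgcs1 in unwounded cells was called in 20 of 22, the others in 3 to 10. Under median-of-ratios scaling 0 members were called at the cortex of wounded cells, against 15.2% of all genes, where the reported count was 3. Scaling by library totals gave 4 there, with Scap added (0.48), and 0 after wounding in the total fraction, and it moved the median of all genes to 0.19 in unwounded and 0.25 in wounded cells, so that 1582 of 2051 and 2203 of 2723 called genes were higher at the cortex (898 of 1928 and 1034 of 2124 as reported) and 708 of 1812 after wounding in the total fraction (1139 of 2116). Of all genes, that scaling called 20.1% at the wounded cortex and 13.4% after wounding in the total fraction. DESeq2 gave 2 members at the wounded cortex, where it called 18.6% of all genes. Without the filter the counts were 2, 2 and 0 for the unwounded cortex, the wounded cortex and wounding in the total fraction. The shares of all genes were 10.1%, 10.8% and 11.1%. With only the groups compared the counts were 3, 0 and 0, and 2 for wounding in the cortical fraction. There the shares of all genes were 23.7%, 7.66%, 9.25% and 11.3%. Removing the length trend gave 1, 1 and 2, against 10.6%, 10.8% and 19% of all genes. Limma on FPKM gave 2, 1 and 2 with either pseudocount. Its shares of all genes were 12%, 12.1% and 14.3% with a pseudocount of 1 and 11.8%, 11.9% and 14.1% with 0.1. Leaving out 1 library gave 0 to 3 members at the unwounded cortex, 0 to 4 at the wounded cortex, 0 to 1 for wounding in the total fraction, and 0 for the cortical fraction and the difference of ratios. In the same order, the shares of all genes ran from 6.69% to 22.4%, 7.66% to 24.7%, 7.99% to 24.9%, 0.767% to 9.07% and 0.0284% to 2.93%.

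No deviation shared by replicate number was seen: over 18 same-numbered pairs the correlation of deviations from the group means was -0.0331 to 0.0913, and 0 of 12 libraries correlated best with their own number in every other group. With 3 libraries a group this cannot show that same-numbered fractions came from separate lysates. With the replicate block 2, 1 and 0 members were called at the unwounded cortex, the wounded cortex and for wounding in the total fraction (Hmgcs1 and Sqle in unwounded, Hmgcs1 in wounded cells). With the block and the length trend removed the counts were 1, 0 and 2. Of all genes, 13.7%, 14.6% and 15% were called with the block, and 9.96%, 10.1% and 18.3% with both.

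Signs turned in 56 of the fits of single members, none of them for a called value and none called afterwards, the largest being 0.14. Under scaling by totals these were Fdft1 0.11 and Insig1 0.065 at the unwounded cortex, Insig1 0.084 at the wounded cortex, Sqle -0.037, Scap -0.035 and Insig1 -0.018 for wounding in the total fraction, and Sqle -0.045 and Insig1 -0.000081 in the cortical fraction. With the length trend removed they were Lss -0.014 and Scap -0.026 (unwounded cortex), Srebf2 -0.075 (wounded cortex), Lss 0.010 (wounding, cortical) and Insig1 -0.12 (difference of ratios), and with the block added -0.014, -0.027, -0.073, 0.011 and -0.11. Sqle for wounding in the cortical fraction was -0.0093 with median-of-ratios scaling, -0.0092 with DESeq2, -0.011 with limma at either pseudocount and -0.016 without the filter and with only the groups compared. Insig1 in the difference of ratios was -0.048 with median-of-ratios scaling, -0.049 with DESeq2, -0.017 without the filter and -0.026 with limma. With 1 library left out, signs turned for Insig1 at the unwounded cortex (-0.20 to 0.0055), Sqle (-0.13 to 0.13), Scap (-0.11 to 0.24) and Insig1 (-0.0028 to 0.14) for wounding in the total fraction, Sqle (-0.046 to 0.067), Lss (-0.079 to 0.018) and Insig1 (-0.078 to 0.13) in the cortical fraction, and Sqle (-0.14 to 0.14), Scap (-0.030 to 0.30) and Insig1 (-0.13 to 0.076) in the difference of ratios.

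Counts over all genes moved as well. Only the groups compared gave 3014, 970, 1175 and 1423 called genes for the unwounded cortex, the wounded cortex, and wounding in the total and cortical fractions, against 1928, 2124, 2116 and 337 as reported; without wounded total replicate 1 they were 3151, 3475, 3502 and 1276, with 413 for the difference of ratios against 17. DESeq2 gave 736 for wounding in the cortical fraction and 72 for the difference, no filter 559 and 138, and scaling by totals 199 and 11. Block and length trend together gave 1365 at the wounded cortex. Over all left-out libraries the ranges were 949 to 3151, 1084 to 3475, 1128 to 3502, 108 to 1276 and 4 to 413. The cause of these shifts was not tested. Idi1 had the fewest counts of the members, with 19 to 59 a library.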

Other observations

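The other 6 members were set over Fdft1 inside each library in FPKM in the same way as Hmgcs1. In unwounded cells every cortical library lay above every total one for 3 of the 6: at 0.633 to 0.785 against 0.440 to 0.532 for Sqle, 0.643 to 0.656 against 0.452 to 0.542 for Srebf2 and 1.54 to 1.86 against 1.43 to 1.48 for Scap. The ranges met for Lss (0.363 to 0.455 in cortical against 0.320 to 0.375 in total libraries), Insig1 and Idi1. In wounded cells Sqle was at 0.569 to 0.665 against 0.326 to 0.529, Srebf2 at 0.580 to 0.724 against 0.428 to 0.573, Lss at 0.323 to 0.420 against 0.206 to 0.286, Scap at 1.52 to 2.01 against 0.996 to 1.44 and Idi1, on few counts, at 0.025 to 0.034 against 0.018 to 0.021, all apart, while Insig1 met (0.279 to 0.318 against 0.221 to 0.315). All of these ratios share Fdft1, so they move together with it, and they were computed after the members' values were seen. They were not corrected for coding length, with which the cortical difference rose over all genes. That length is 1248 bases for Fdft1, against 1716 for Sqle, 2199 for Lss, 3390 for Srebf2 and 3828 for Scap. For Idi1 and Insig1 it is 849 and 777 bases. The part of coding length in the ratios was not tested. Fdft1 itself had cortical log2 fold changes of -0.08 and -0.24, and a lower Fdft1 raises every ratio over it. The share of all genes set apart by such a ratio was not computed. In CPM, 36.2% of all genes were apart in unwounded and 29.2% in wounded cells.

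Some genes of moderate level were at 0 in single libraries. Of the genes whose level in the other libraries of the group gives an expected count of 10 to 20, 32.7% were at 0 in wounded total replicate 1, 24.8% in unwounded cortical replicate 1, 23.6% in wounded cortical replicate 1, 13.1% to 17.7% in the other 2 libraries of each wounded fraction, 4.40% and 8.63% in the other 2 unwounded cortical libraries and 0.506% to 5.05% in the 3 unwounded total libraries. Of the 8 members Idi1, with 19 to 59 counts a library, lies nearest to this range.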
